A study of Mus musculus with 4 samples.

Results

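Glutamatergic Neurons_1 is a sub-cluster of neurons in a single-nucleus RNA-seq data set of the adult mouse hypothalamus. Its members are the nuclei that carry this name in the deposited annotation, 6222 nuclei of the 35756 in the main neuronal cluster Neurons_1 (17.4%) and of the 56386 annotated nuclei in all (11.0%). The study compared adult wild-type (WT) male mice with adult males heterozygous for the R384C mutation of thyroid hormone receptor α1 (TRα1+m), a receptor with lowered affinity for its hormone, all on a C57/BL6NCr background. The mutant allele is in every cell of these animals, so effects on the hypothalamus and on the rest of the body are not separated in this model. There were 4 libraries, made in 2 independent experimental repeats, each with 1 WT and 1 TRα1+m library. Each library held pooled nuclei isolated from the frozen hypothalami of 3 mice (12 mice in total). The replicate is therefore the library (n = 2 per genotype).

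Glutamatergic neurons release glutamate and load it into synaptic vesicles, in the hypothalamus mostly through the transporter Slc17a6 (VGLUT2). Many of them also release peptides, and neurons of the paraventricular nucleus that depend on the transcription factor Sim1 include those that make thyrotropin-releasing hormone (Trh), which drives the pituitary-thyroid axis and is itself repressed by thyroid hormone. Thyroid hormone enters cells through transporters, is activated or inactivated by deiodinases, and acts on receptors that sit on DNA with corepressors when hormone is missing and with coactivators when it is bound.

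The WT libraries contributed 1762 nuclei in repeat 1 and 1331 in repeat 2, and the TRα1+m libraries contributed 2091 and 1038. In the same order the median unique molecular identifiers (UMIs, the molecules counted) per nucleus were 4162, 5832, 3995 and 5127, and the sums over the sub-cluster were 8121585, 8369748, 9154913 and 5874763 UMIs. Depth per nucleus was thus higher in repeat 2 in both genotypes, and the smallest sum set the precision for rare transcripts. The median mitochondrial share of UMIs was 0.815%, 0.957%, 0.700% and 0.559%. Among the members, 1 barcode sequence occurred in both WT libraries and 1 in WT repeat 1 and TRα1+m repeat 2, and no other pair shared any.

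The sub-cluster made up 18.4% and 15.2% of Neurons_1 nuclei in the WT libraries and 19.7% and 15.2% in the TRα1+m libraries. The genotypes overlapped, and both repeat 1 values lay above both repeat 2 values. The means were 16.8% ± 2.27 in WT and 17.5% ± 3.17 in TRα1+m (SD, n = 2 each), with p = 1 in a two-sided exact permutation test whose smallest possible p at this size is 0.333. The edgeR quasi-likelihood test over all neuronal sub-clusters gave a log2 ratio of 0.05 (SE 0.38, adjusted p = 0.992).

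The label was checked against its marker, with levels as CPM, the UMIs of a gene per 1000000 UMIs of the library's sum over the sub-cluster. Slc17a6 stood at 196 and 313 CPM in WT and at 188 and 304 CPM in TRα1+m, a mean of 250.0 CPM ± 67.2 (SD, n = 4). That mean was the third highest among the neuronal sub-clusters, after CART Neurons_1 and CART Neurons_2 at 370 and 256 CPM. CART Neurons_1 was higher in each library, while the libraries of CART Neurons_2 (92.0 to 426 CPM) overlapped with those of Glutamatergic Neurons_1. The libraries of Glutamatergic Neurons_3 (mean 242 CPM) and Glutamatergic Neurons_2 (mean 235 CPM) overlapped with them too, and GABA neurons had 51.1 CPM. With each nucleus thinned to 2000 UMIs, 36.3% of 6099 nuclei held a UMI of Slc17a6 (exact 95% binomial interval 35.1% to 37.5%, counting error only), against 8.92% of GABA neurons and 10.5% of the 1433 oligodendrocytes deep enough to be thinned. Without thinning the shares were 61.9%, 16.5% and 11.1%. The other vesicular glutamate transporters were rare, with a UMI of Slc17a7 in 0.514% and of Slc17a8 in 0.386% of the nuclei.

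Transcripts of GABA neurons were also present. A UMI of Gad1, Gad2 (GABA synthesis) or Slc32a1 (vesicular GABA transport) was found in 17.4% of thinned nuclei and 34.0% of whole nuclei, against 59.4% and 78.3% among GABA neurons. In oligodendrocytes, which should lack these genes and had medians of 1493 to 1812 UMIs per nucleus, the shares were 29.4% and 28.9%. The thinned share in Glutamatergic Neurons_1 was below that in the 1433 oligodendrocytes deep enough to be thinned. It is not read as expression in the sub-cluster as a whole. Among the transcriptional groups described below, group 1 (14.0% of the nuclei) held 25.5% of Slc32a1, 20.8% of Gad2 and 14.2% of Gad1 UMIs. Group 13 (2.83% of the nuclei) held 12.8% of Gad1 UMIs. Expression in a part of the nuclei was not tested. The parts of free RNA and of doublets in these shares were not tested. The level of Gad2 was 49.3 CPM against 266 CPM in GABA neurons, and that of Slc32a1 was 20.0 CPM against 149 CPM. The label therefore held by its marker.

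The gene that set the sub-cluster apart most from Glutamatergic Neurons_2, Glutamatergic Neurons_3 and GABA neurons was Sim1. Because the annotation was made from these nuclei, the levels are a description and no test was applied. Sim1 stood at 205 and 201 CPM in WT and at 200 and 212 CPM in TRα1+m, a mean of 204 CPM ± 5.32 (SD, n = 4), which was 28.6-fold over the highest of the 3 compared sub-clusters. The 4 libraries were nearly level. Over all neuronal sub-clusters Sim1 was higher in the Oxytocin+, AVP Neurons (585 CPM), while the libraries of CART Neurons_1 (197 CPM) and CART Neurons_2 (163 CPM) overlapped with those of Glutamatergic Neurons_1.

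Trh was the coding gene with the next highest fold. Its level was 119 and 422 CPM in WT and 115 and 565 CPM in TRα1+m, a mean of 305 CPM ± 225 (SD, n = 4), the highest of all neuronal sub-clusters, and 15.8-fold over the GABA neurons. Repeat 2 was far above repeat 1 in both genotypes, while the genotypes overlapped. Pmch, which encodes the precursor of melanin-concentrating hormone (MCH), had 818 and 5151 CPM in WT and 974 and 4664 CPM in TRα1+m. The same split by repeat was seen, and the sub-cluster named for MCH neurons was higher, at 9491 CPM ± 8878 (SD, n = 4).

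Because Trh was among the 15 genes of largest fold and is under thyroid hormone control, its promoter is shown. The thyroid hormone receptor half-site AGGTCA was searched on both strands in the 300 bases around the RefSeq start site of each gene (build GRCm38.p6). Trh had a match 57 bases before its start, at chr6:92244702-92244707, in the window chr6:92244692-92244717 on the minus strand, where the 6 capitals are the half-site read in reverse complement.
Trh: ccctccccgcTGACCTcacaggcgcc
A match of these letters is a description and not a site of binding: 16.3% of 32851 promoters of the same length held one. Of the 17 thyroid hormone response genes with a promoter in the RefSeq table, 2 held one (Trh and Homer1).

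Of the other genes among the 15 with the largest fold over the compared sub-clusters, some were level across libraries and some followed the repeat. Calcr, the calcitonin receptor, had 71.2 and 77.2 CPM in WT and 59.0 and 63.7 CPM in TRα1+m, lower in both mutant libraries, and was 2.31-fold over the highest of the 3. Gpc5, a heparan sulphate proteoglycan of the cell surface, had 1004 and 1032 CPM in WT and 979 and 1061 CPM in TRα1+m (1.75-fold). Gpc5, B230323A14Rik, Gm20713 and Dpf3 were higher in astrocytes than in this sub-cluster, with means of 7438, 296, 543 and 122 CPM there. Arhgap24, which encodes a GTPase-activating protein, had 302 and 303 CPM in WT and 312 CPM in each TRα1+m library. Nxph4, which encodes a secreted neurexophilin, had 21.5 and 48.4 CPM in WT and 23.4 and 39.8 CPM in TRα1+m and so was higher in repeat 2. The rest were Onecut2 and Dpf3 (transcription and chromatin factors), Agbl1 and the less well described Gm28526, B230323A14Rik, Gm12082, Gm27199 and Gm20713, at folds between 1.68 and 25.9. At the other end, Lmx1a and Lmx1b, transcription factors of the supramammillary region, stood at 2.04 and 0.900 CPM against 134 and 48.7 CPM in Glutamatergic Neurons_3. Npvf, a peptide precursor gene, stood at 2.07 CPM against 63.9 CPM in Glutamatergic Neurons_2, and Dlx6os1, a transcript of GABA neurons, at 4.57 CPM against 75.7 CPM in GABA neurons.

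**Figure D1:**
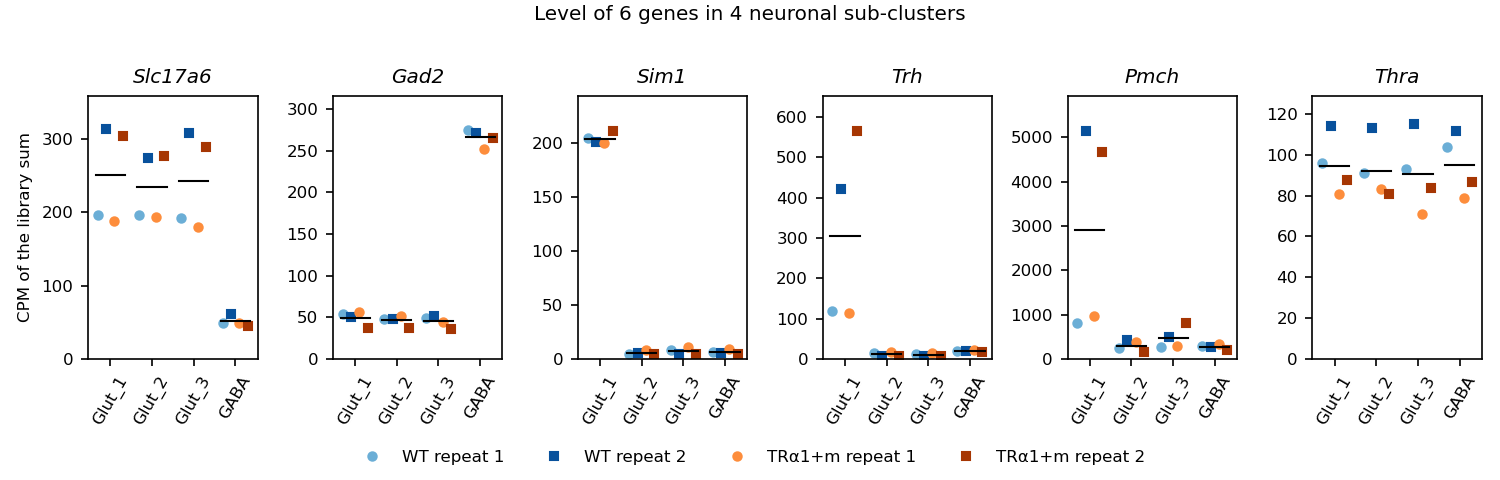
Level of 6 genes (CPM of the library sum, vertical axis) in the 4 neuronal sub-clusters, one point for each of the 4 libraries and a bar at their mean (Glut and GABA stand for the glutamatergic and GABA neurons). Sim1 lies near 204 CPM in every library of Glutamatergic Neurons_1, whereas Trh and Pmch are split by repeat.

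Clustering the 6222 nuclei by their own variable genes gave 20 transcriptional groups, numbered by size from 873 nuclei down to 32. Each group is described by the genes with the highest fold over the other members. These genes made the groups, so no group was tested against another. Sim1 reached 20 CPM or more in 17 groups, between 88.9 and 547 CPM, and fell short of it in groups 6, 13 and 18, which together held 692 nuclei (11.1%).

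Peptide precursors divided the Sim1 groups. Trh was at 1176 CPM in group 7 (441 to 2600 CPM by library), at 966 CPM in group 4 (341 to 1578 CPM) and at 976 CPM in the small group 19 (356 to 3214 CPM), in each case higher in both libraries of repeat 2. In group 19 the values of repeat 2 rest on 7 nuclei in WT and 3 in TRα1+m. Group 7 also held Cartpt (215 CPM), Ghrh (growth hormone-releasing hormone, 71.0 CPM) and Sim2 (34.8 CPM), and group 4 held Tac1, the substance P precursor, at 954 CPM with Ebf2 at 286 CPM. Group 19 (40 nuclei) had the highest Sim1 and was led by Ucn3 (urocortin 3, 703 CPM, 262 to 2296 CPM by library), with Penk, the enkephalin precursor, at 472 CPM. These 3 groups shared a high level of Trh and differed in the other peptides named.

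Other groups held other peptides or hormone receptors. Oxt (oxytocin) was at 2010 CPM in group 9, with 1467 and 6428 CPM in WT and 748 and 2887 CPM in TRα1+m, the highest value resting on 32 nuclei. The estrogen receptor gene Esr2 (45.7 CPM) and Reln (653 CPM) were among its leading genes. Group 12 had Agtr1a, an angiotensin receptor (130 CPM), among its leading genes and held Crh (corticotropin-releasing hormone) at 61.9 CPM. Sst (somatostatin) was at 3948 CPM in group 16 (1119 to 9651 CPM by library) and at 3449 CPM in group 20 (433 to 6704 CPM), both higher in repeat 2. The values of repeat 2 rest on few nuclei, 10 in WT and 15 in TRα1+m in group 16 and 4 and 8 in group 20. Tac2 was at 1256 CPM in group 15 (401 to 1979 CPM). Group 5 was led by the leptin receptor gene Lepr (31.5 CPM), with the neuropeptide S receptor gene Npsr1 (218 CPM) also among its leading genes. Group 8 held Calcr at 285 CPM beside Sst at 424 CPM and Calca at 161 CPM. Among the leading genes of the largest groups were the transcription factor gene Tcf7l2 (60.3 CPM) in group 1, B230323A14Rik (399 CPM) and Cck (226 CPM, 62.5 to 354 CPM by library) in group 2, and the transcription factor gene Ebf1 (830 CPM) in group 3.

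Group 13 was MCH-like by its markers and was one of the groups low in Sim1. Its 176 nuclei (37 and 50 in WT, 52 and 37 in TRα1+m) had Pmch at 59795 CPM (18846 to 90591 CPM by library), Cartpt at 2219 CPM (660 to 3489 CPM by library), Tacr3 at 255 CPM and Parpbp at 41.2 CPM. Its median of 6953 UMIs per nucleus was the highest of the 20 groups, and a share of doublets in it was not tested. This group made up 2.83% of the members and held 91.1% of their Pmch UMIs and 53.3% of their Cartpt UMIs. With it left out, Pmch stood at 253 and 286 CPM in WT and at 294 and 145 CPM in TRα1+m, a mean of 245 CPM ± 68.5 (SD, n = 4), within the range of 113 to 692 CPM in the other neuronal sub-clusters apart from MCH Neurons. The high Pmch of the sub-cluster was thus carried by group 13. A UMI of Pmch was also found in 57.5% of oligodendrocytes, so a low level of it in other nuclei is not read as expression. Of the other groups low in Sim1, group 6 was led by Samd3 (87.1 CPM), with Meis2 (418 CPM) among its leading genes, and group 18 by Ano1, with Cftr among its leading genes (147 CPM each).

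**Figure D2:**
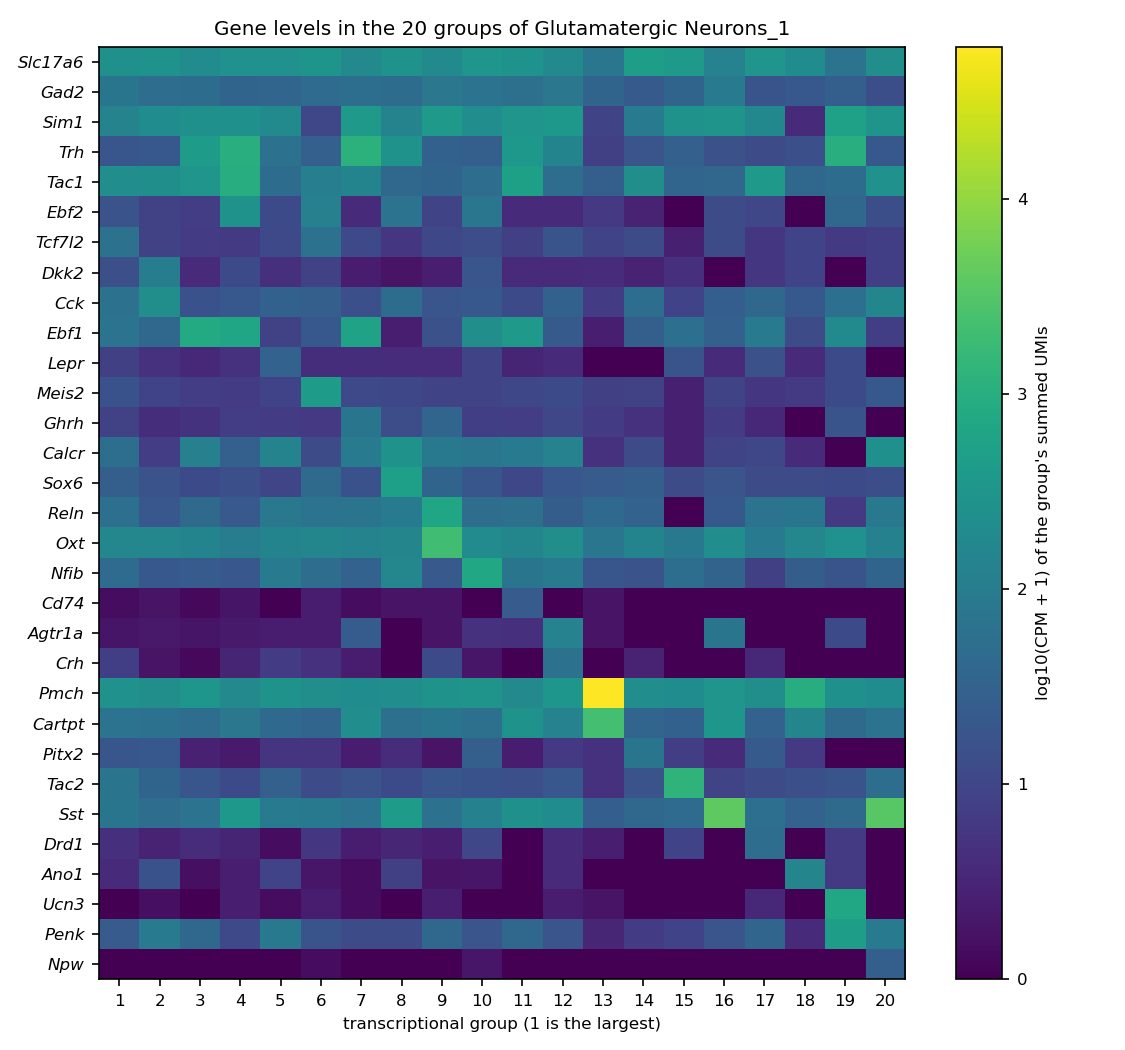
Heat map of gene levels in the 20 groups of Glutamatergic Neurons_1 (columns, group 1 the largest), colour giving log10(CPM + 1) of the group's summed UMIs. Sim1 is low in groups 6, 13 and 18, and Pmch peaks in group 13.

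The source of other peptide transcripts varied. Of the Trh UMIs, 36.6% came from group 4 and 28.6% from group 7. Group 9 held 37.5% of Oxt UMIs, group 2 held 50.8% of Cck UMIs, group 15 held 49.2% of Tac2 UMIs, and group 19 held 88.5% of Ucn3 UMIs. The shares of groups in a library moved with the repeat in some cases. Group 12 held 3.75% and 0.601% of the members in WT and 5.21% and 1.06% in TRα1+m, and group 2 held 9.99% and 18.6% in WT and 9.66% and 15.3% in TRα1+m. In both groups the 2 libraries of a repeat were closer to each other than the 2 libraries of a genotype.

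**Figure D3:**
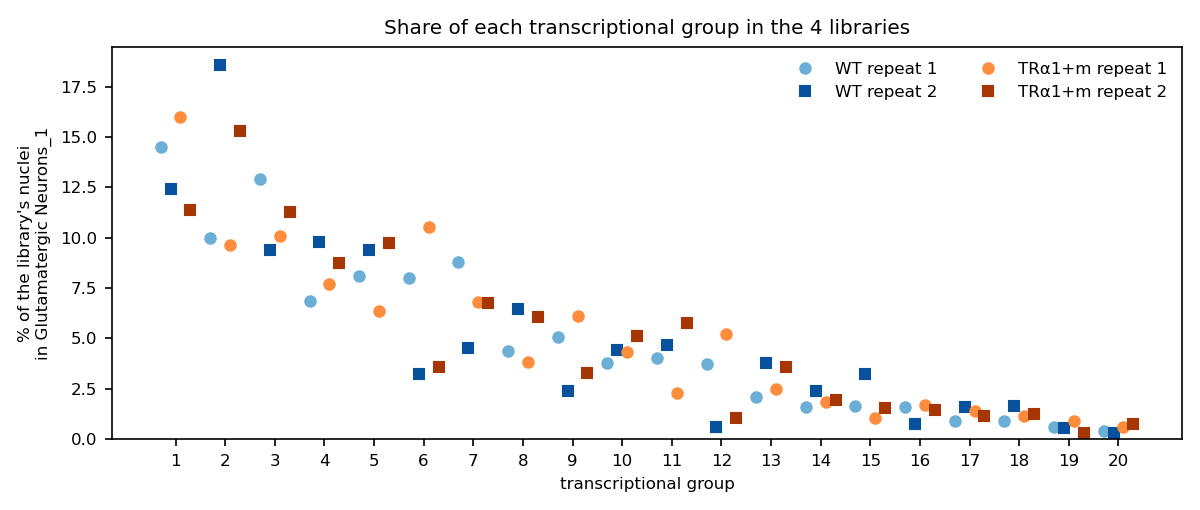
Share of each transcriptional group (horizontal axis) in the members from each of the 4 libraries (%, vertical axis), one point per library. Group 2 is larger in both libraries of repeat 2, and groups 6 and 12 are larger in both libraries of repeat 1.

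The main comparison of the study asked how the mutant receptor changes gene expression. In Glutamatergic Neurons_1, edgeR called 0 of 15808 genes at an adjusted p of 0.05 (0%), and 141 genes (0.892%) had an unadjusted p under 0.05, of which 51 (0.323%) were higher and 90 (0.569%) lower in TRα1+m. DESeq2 called 0 genes as well, with 25 at an unadjusted p under 0.05. Over all genes tested, log2 fold changes had a median of 0.01. The unblocked fit left the difference between repeats, given below, in its residual spread. Its 0 calls therefore do not show that expression was unchanged. With the experimental repeat as a block, 1429 genes had an unadjusted p under 0.05 by edgeR, 590 higher and 839 lower. At the adjusted threshold edgeR with the block called 16 genes (0.101%), 2 higher (0.0127%) and 14 lower (0.0886%). DESeq2 with the same block, chosen after seeing the data, called 3 of them, AC149090.1 higher and Oxt and Arhgap22 lower, and the other calls rest on edgeR alone. That fit has 1 residual degree of freedom, and its calls are given beside the values of the unblocked fit.

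The 2 genes called higher with the block were AC149090.1 and Fabp7. AC149090.1, an annotated gene on the unplaced scaffold JH584304.1 (52190 to 59690), had 480 and 237 CPM in WT and 1032 and 582 CPM in TRα1+m. Both TRα1+m libraries lay above both WT libraries, and the values were also lower in repeat 2 in each genotype. Its log2 fold change was 1.12 (SE 0.43, edgeR adjusted p = 0.9999) without the block and 1.15 (edgeR adjusted p = 5.0e-07) with it. Without the block, it was 1.73 without WT replicate 1, 0.69 without WT replicate 2, 0.63 without TRα1+m replicate 1 and 1.48 without TRα1+m replicate 2. It was higher in TRα1+m in both repeats in 20 of 20 groups, which are parts of the same 4 libraries and not replicates of the genotype. The study named this gene from these samples, so the direction here is not independent evidence. Fabp7, a fatty acid-binding protein usually found in astrocytes and other glia, had 28.0 and 14.8 CPM in WT and 64.0 and 27.1 CPM in TRα1+m. The genotypes overlapped when pooled, with TRα1+m higher within each repeat (edgeR adjusted p = 0.0034 with the block), and the unblocked log2 fold change of 1.05 lay between 0.27 (without TRα1+m replicate 1) and 1.58 (without WT replicate 1).

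Among the 14 genes called lower with the block, Arhgap22 had one of the largest differences. Arhgap22, which encodes a GTPase-activating protein, had 15.3 and 18.4 CPM in WT and 4.81 and 5.45 CPM in TRα1+m. The genotypes did not overlap, and the gene was lower in both repeats in 14 of the 20 transcriptional groups and higher in 0. Those groups are parts of the same 4 libraries and are not replicates of the genotype. The log2 fold change of Arhgap22 was −1.77 (SE 0.24, edgeR adjusted p = 0.9999) without the block and −1.76 (SE 0.20, edgeR adjusted p = 0.0017) with it. Dtna, a component of the dystrophin complex, had 323 and 288 CPM in WT and 231 and 211 CPM in TRα1+m (log2 −0.52, edgeR adjusted p = 0.0036 with the block). Dlc1, which also encodes a GTPase-activating protein, had 214 and 196 CPM in WT and 157 and 147 CPM in TRα1+m (log2 −0.49, edgeR adjusted p = 0.0174 with the block). For both genes the genotypes were apart by more than the spread between the libraries of one genotype.

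Chn1, a Rac GTPase-activating protein of neurons, had 156 CPM in each WT library and 115 and 119 CPM in TRα1+m, and Tet1, an enzyme that oxidises methylated cytosine, had 63.2 and 58.2 CPM in WT and 43.5 and 40.0 CPM in TRα1+m. H2-Q2, a class I histocompatibility gene with close paralogs among which reads can be divided, had 5.79 and 14.1 CPM in WT and 1.64 and 2.89 CPM in TRα1+m. Neat1, a long RNA of nuclear paraspeckles, had 6.90 and 5.85 CPM in WT and 2.29 and 1.87 CPM in TRα1+m. In all 4 of these genes both TRα1+m libraries lay below both WT libraries. The same held for 1217 genes (7.7%) of all those tested, while 2635 (16.7%) lay above. These shares, here and below, compare CPM without the TMM factors of the edgeR fits. With TMM factors the balance was the other way, with 4750 genes lower and 4069 higher in TRα1+m within both repeats. The others called lower with the block were Oxt, Jarid2, Pkia, Kcnn2, A830018L16Rik, Lgi3 and Pcp4.

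Oxt had 313 and 207 CPM in WT and 223 and 125 CPM in TRα1+m. The genotypes overlapped, with TRα1+m lower within each repeat (log2 −0.63 without the block, edgeR adjusted p = 0.0026 with it). The unblocked value lay between −1.12 (without TRα1+m replicate 1) and −0.27 (without TRα1+m replicate 2). Oxt was at 13963 CPM in Oxytocin+, AVP Neurons and at 857 CPM in MCH Neurons, and it was found in the other neuronal sub-clusters too, at means of 88.3 to 235 CPM. In GABA neurons it had 511 and 53.3 CPM in WT and 222 and 25.4 CPM in TRα1+m, so WT was higher within each repeat there as well. With the repeat term, the log2 effect on Oxt differed by 0.61 from that in GABA neurons (edgeR adjusted p = 1.2e-17) and by 0.39 from that in Glutamatergic Neurons_2 (edgeR adjusted p = 0.0035), being less negative in Glutamatergic Neurons_1, and neither difference was called without that term. In MCH Neurons repeat 1 went the other way, with 397 CPM in WT and 710 CPM in TRα1+m. The part of free RNA in the difference was not tested.

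Without the block, the genes with the smallest unadjusted p among those of at least 10 CPM were also examined as values. Higher in TRα1+m were Dnah7c, which encodes an axonemal dynein, at 9.11 and 8.36 CPM in WT and 16.3 and 15.7 CPM in TRα1+m (log2 0.82, SE 0.21), then Iqgap2 (log2 0.62), Nudcd2 (0.55), Gda (0.49), Lima1 (0.49), Dpy19l3 (0.47), Wasf2 (0.40), Efcab1 (0.39) and 4933424G06Rik (0.61). Lower were Cadm2, a synaptic adhesion gene, at 2238 and 2347 CPM in WT and 1902 and 1821 CPM in TRα1+m (log2 −0.35), and Hectd2 (−0.68), Flywch2 (−0.88) and Vmn2r85 (−0.84), beside Arhgap22, Dtna, Chn1, Dlc1, Tet1 and mt-Co3. None of them passed the adjusted threshold in the unblocked edgeR fit, where the smallest adjusted p over all genes was 0.9999.

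**Figure D4:**
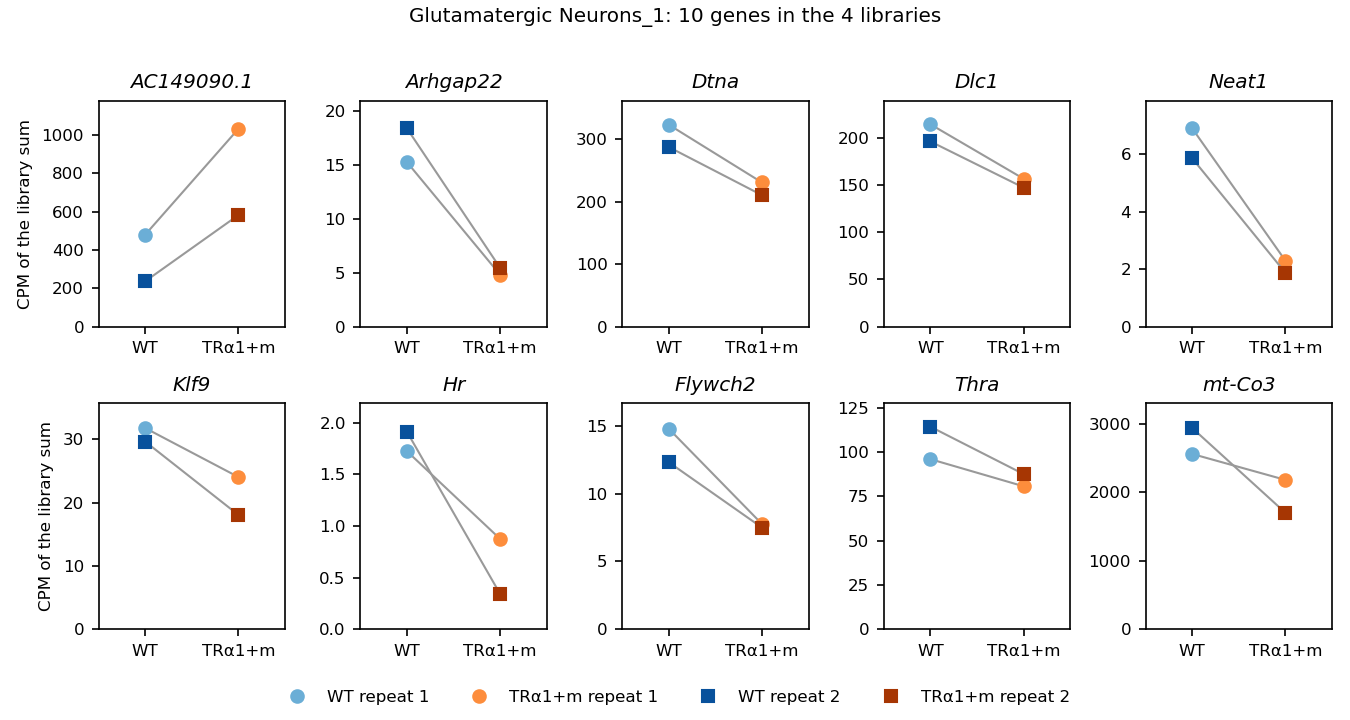
Levels of 10 genes (CPM of the library sum, vertical axes) in the 2 WT and 2 TRα1+m libraries of Glutamatergic Neurons_1, one point per library, with a line joining the libraries of a repeat. AC149090.1 is higher in both TRα1+m libraries and the other 9 genes are lower in both.

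The mutated gene itself, Thra, was present in every library, at 95.9 and 114 CPM in WT and at 80.6 and 87.5 CPM in TRα1+m. The TRα1+m libraries lay below the WT libraries, with a log2 fold change of −0.38 (edgeR unadjusted p = 0.0467), and the gene did not pass the adjusted threshold with or without the block. Gene counts do not separate the mutant from the normal allele, so they do not check the genotype labels. Thrb, the other receptor gene, had 212 and 197 CPM in WT and 192 and 186 CPM in TRα1+m (log2 −0.17). Among 16 receptors and cofactors the median log2 fold change was −0.04, with 3 genes higher and 3 lower in TRα1+m without overlap (16.7% and 7.7% of all genes). The corepressor gene Ncor1 (282 and 275 CPM in WT, 289 and 272 CPM in TRα1+m) and the coactivator gene Ncoa1 (254 and 249 CPM in WT, 244 and 263 CPM in TRα1+m) overlapped between genotypes.

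Of 13 genes for thyroid hormone transport and metabolism, 9 could be tested, and 0 were called. Slco3a1 and Slc7a8 were the members with both TRα1+m libraries below both WT libraries, at log2 −0.11 and −0.43, and 0 members had both above, against 7.7% and 16.7% of all genes. The deiodinase genes were at the limit of detection, with Dio2 at 0.526 CPM, Dio3 at 0.030 CPM and Dio1 without a UMI, which allows a level of up to 0.0952 CPM over the 4 libraries (3 counts, counting error only).

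Of 23 known thyroid hormone response genes, 20 were tested and 0 were called with or without the block. Their median log2 fold change was −0.23, against 0.01 over all genes. Of these, 6 members lay lower in TRα1+m without overlap and 0 higher (7.7% and 16.7% of all genes). Within both repeats 11 members were lower (4750 of the 15808 genes tested). The list mixes genes that the hormone induces, such as Klf9, with genes that it represses, such as Trh. Its median and counts therefore do not measure a response to the hormone. Klf9, a transcription factor induced by the hormone, had 31.8 and 29.6 CPM in WT and 24.0 and 18.0 CPM in TRα1+m (log2 −0.59). Hr, the hairless corepressor gene, had 1.72 and 1.91 CPM in WT and 0.874 and 0.340 CPM in TRα1+m (log2 −1.51). These rest on 14, 16, 8 and 2 UMIs, and the log2 value lay between −2.43 (without TRα1+m replicate 1) and −1.09 (without TRα1+m replicate 2). Flywch2 had 14.8 and 12.3 CPM in WT and 7.76 and 7.49 CPM in TRα1+m. In these 3 genes the genotypes were apart. The further members below WT in both mutant libraries were Homer1, Mme and Aldh1a1, while Trh, at log2 0.27, overlapped between genotypes.

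The 13 mitochondrially encoded genes lay mostly lower in TRα1+m, and none was called. Their median log2 fold change was −0.45, with 10 members below both WT libraries (7.7% of all genes) and 12 lower within both repeats (4750 of the 15808 genes tested). mt-Co3, which encodes a subunit of cytochrome c oxidase, had 2558 and 2937 CPM in WT and 2179 and 1699 CPM in TRα1+m (log2 −0.55), and mt-Co2 had 1009 and 1373 CPM in WT and 871 and 877 CPM in TRα1+m (log2 −0.50). The lower mitochondrial level was not particular to this sub-cluster. The median mitochondrial share of UMIs in GABA neurons was 0.877% and 1.04% in WT and 0.785% and 0.620% in TRα1+m. In oligodendrocytes it was 2.23% and 2.37% in WT and 1.84% and 1.51% in TRα1+m. Mitochondrial RNA in a nuclear preparation is carried over from the cytoplasm, and the amount carried over in each library was not tested. The 30 nuclear genes of oxidative phosphorylation had a median of −0.18, with 4 members below both WT libraries, 0 above (7.7% and 16.7% of all genes), and 22 lower within both repeats.

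Genes the study named for neurons were chosen on these samples, so their direction here is not independent evidence. mt-Atp6, a subunit of ATP synthase, had 1117 and 1905 CPM in WT and 945 and 1232 CPM in TRα1+m, which overlapped. Lrrtm4, a postsynaptic adhesion gene, had 4121 and 4520 CPM in WT and 3720 and 3866 CPM in TRα1+m (log2 −0.24). The glutamate receptor gene Grm8 had 525 and 542 CPM in WT and 507 and 512 CPM in TRα1+m (log2 −0.12). For Lrrtm4 and Grm8 the genotypes did not overlap.

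Of the genes of synapses and excitability, 0 were called without the block and only Kcnn2 with it. Over all genes tested, 7.7% lay lower and 16.7% higher in TRα1+m without overlap. Of 36 synaptic adhesion genes, 10 lay lower and 0 higher (median log2 −0.12), and 26 overlapped. Of 30 potassium and HCN channel genes, 7 lay lower and 2 higher (median −0.10), and Kcnn2, a calcium-activated potassium channel gene, had 246 and 278 CPM in WT and 194 and 215 CPM in TRα1+m (log2 −0.41, edgeR adjusted p = 0.0392 with the block). Of 25 genes of vesicle release, 6 lay lower and 0 higher (median −0.09), and Unc13c, a vesicle priming gene, had 452 and 415 CPM in WT and 358 and 357 CPM in TRα1+m (log2 −0.33). Of 17 ionotropic glutamate receptor genes, 4 lay lower and 0 higher, with Gria4 at 1380 and 1381 CPM in WT and 1222 and 1229 CPM in TRα1+m (log2 −0.23). Unc13c and Gria4 had an unadjusted p under 0.05 and were not called.

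Of 35 neuropeptide genes tested, 0 were called without the block and only Oxt, described above, with it. Of these, 2 lay higher and 2 lower without overlap (median log2 −0.06), against 16.7% and 7.7% of all genes. Of 43 regional transcription factors, 7 lay higher and 3 lower (median 0.01), shares near those of all genes, and Sim1 was at log2 −0.03. Of 43 feeding and hormone receptors, 3 lay higher and 5 lower (median −0.002), and 0 were called. The serotonin receptor gene Htr2c, the 1 member with an unadjusted p under 0.05 by edgeR, had 565 and 538 CPM in WT and 451 and 464 CPM in TRα1+m (log2 −0.32). Markers of glia and vessels summed to 757 and 662 CPM in WT and 894 and 588 CPM in TRα1+m, their most abundant gene being Mbp at 186 CPM, and none of the 23 markers was without a UMI. Of the 22 tested, 6 lay higher and 2 lower (median 0.11), against 16.7% and 7.7% of all genes. Their part in the differences above, that in Fabp7 included, was not tested.

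Whether the genotype effect differed from that in other neurons was tested as an interaction, with the library as a term. The same 4 libraries supplied both sub-clusters in each test, so the tests are not independent of each other. Against Glutamatergic Neurons_2, 0 of 15988 genes were called (0%), with 665 at an unadjusted p under 0.05. Against GABA neurons, 0 of 17326 were called (0%), with 661 at an unadjusted p under 0.05, and against Glutamatergic Neurons_3, 2 of 15382 were called (0.013%), of which Cck is described here. With a term for the repeat in each sub-cluster the calls were 37 (0.231%), 21 (0.121%) and 1 (0.0065%) against Glutamatergic Neurons_2, GABA neurons and Glutamatergic Neurons_3. The last was Gm29478, whose TRα1+m value in repeat 1 of Glutamatergic Neurons_3 (54.6 CPM) stood apart from its other 3 values there (0.433 to 3.07 CPM).

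Cck, the cholecystokinin precursor, had 21.5 and 91.9 CPM in WT and 30.5 and 73.7 CPM in TRα1+m, against 17.1 and 61.9 CPM in WT and 39.7 and 143 CPM in TRα1+m in Glutamatergic Neurons_3. The mutant value was higher in repeat 1 and lower in repeat 2 in Glutamatergic Neurons_1, and higher in both repeats in Glutamatergic Neurons_3. The difference of the log2 effects was −1.25 (SE 0.16, edgeR adjusted p = 0.0259). It did not pass the threshold with the repeat term (edgeR adjusted p = 0.0685) or without WT replicate 2 (edgeR adjusted p = 0.426).

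AC149090.1 did not differ in its genotype effect between these neurons at the threshold. Its log2 fold change was 1.12 in Glutamatergic Neurons_1, 1.05 in Glutamatergic Neurons_2, 0.90 in Glutamatergic Neurons_3 and 1.09 in GABA neurons, and the interaction terms against the last 3 were 0.11 (SE 0.09), 0.29 (SE 0.11) and 0.02 (SE 0.06).

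The experimental repeats differed far more than the genotypes. With genotype as a term, edgeR called 3829 of 15808 genes (24.2%), 2060 higher in repeat 2 (13%) and 1769 lower (11.2%). DESeq2 called fewer, 1087 genes, 638 higher and 449 lower. The edgeR count also moved when a library was left out, as given under the dependence on processing. Tac1 had 92.2 CPM in WT and 107 CPM in TRα1+m in repeat 1 and 403 and 528 CPM in repeat 2, a log2 difference of 2.19 (SE 0.08, edgeR adjusted p = 6.5e-11). The values of the 2 genotypes were close within a repeat and the repeats did not overlap. Pmch (log2 2.43), Trh (2.04), Cartpt (1.69), Cck (1.65), Sst (1.39) and Tac2 (1.37) were likewise called higher in repeat 2, as were the granin genes Chga (1.44), Vgf (1.00) and Scg2 (0.76) and the marker Slc17a6 (0.66). For Pmch and Cartpt the 176 nuclei of group 13 carried much of the difference. Without group 13, Pmch had no consistent direction between repeats, as given above, and Cartpt had 61.3 and 64.3 CPM in repeat 1 and 109 and 113 CPM in repeat 2 (WT and TRα1+m). Oxt (−0.73), Hcrt (−0.80), Malat1 (−0.91) and AC149090.1 (−0.95) were called lower. In group 9, which held 37.5% of Oxt UMIs, Oxt was instead higher in both libraries of repeat 2, as given above. Oxytocin+, AVP Neurons likewise had 6250 and 3787 CPM of Oxt in repeat 1 and 33076 and 12740 CPM in repeat 2 (WT and TRα1+m). Avp, at −1.17, was not called (edgeR adjusted p = 0.0678), nor were Sim1 (0.00), Thra (0.16) and Thrb (−0.10). What differed between the repeats (animals, dissection, depth per nucleus) cannot be told apart.

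**Figure D5:**
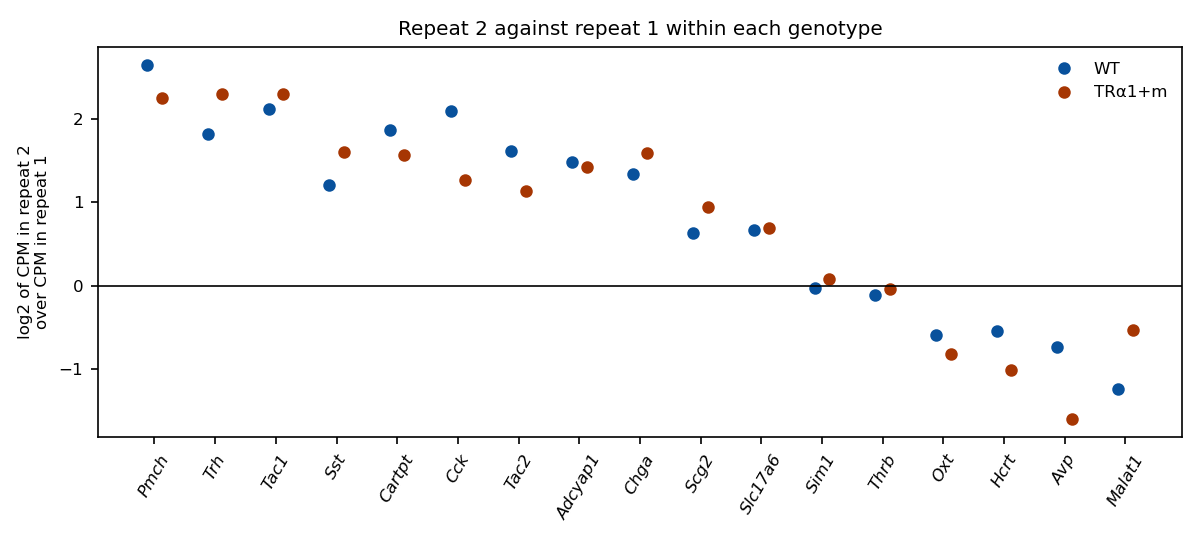
Log2 ratio of the CPM in repeat 2 to that in repeat 1 (vertical axis) for named genes (horizontal axis), one point for each genotype. Peptide genes such as Pmch, Tac1 and Trh lie above 0 in both genotypes, and Sim1 lies near 0.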

How the data were processed

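The authors deposited UMI counts per gene and nucleus, made with Cell Ranger 5.0.1 on mm10 with intronic reads included, and a table of their cluster names, made with Seurat and harmony after filters on counts, features, mitochondrial share and doublet score. No further doublet caller was run. The 6222 nuclei were selected by that name, and their counts were summed per library. Sums were tested with edgeR 4.0.16 (R 4.3.3; quasi-likelihood F-test, TMM factors, filterByExpr, Benjamini-Hochberg adjustment, threshold 0.05); DESeq2 1.42.0 was an alternative. Both tests measure the spread between pools of 3 mice. The main fit left 2 residual degrees of freedom. The experimental repeat was used as a block in a second fit: per the study's methods and the labels, a repeat number marks a shared experiment, and the difference between repeats correlated across 10078 genes between the genotypes (Pearson r = 0.809). Groups came from log counts (2000 variable genes, centred within library, 30 components, 20 neighbours, Leiden resolution 0.5; leidenalg 0.10.2). Shares in thinned nuclei carry counting error only.

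Named genes were the 10 higher and 10 lower of smallest unadjusted p (mean of at least 10 CPM), any called gene, genes the study names, leading members of 34 gene lists, the 15 of largest fold over the compared sub-clusters (at least 20 CPM), leading genes of each group, and called interactions. Genes called with the block, and examples beyond these ranks, were named after their values were seen. The members and lists were chosen with earlier results of these data known. Some genes that these rules choose are not reported here. Scripts for the tests were tested on simulated data. The simulated counts for the genotype test held no difference between repeats. They therefore do not show which effects the unblocked fit could call in these libraries. Gene identifiers matched GENCODE vM21 for 32235 of 32285 genes.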

Additional observations from a re-analysis of the deposited data

Results flagged for a closer look

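Cck was singled out because its genotype effects in Glutamatergic Neurons_1 and in Glutamatergic Neurons_3 differed in the test of the difference itself. The difference of the log2 effects was −1.25, with effects of −0.19 and 1.16 in the 2 sub-clusters. The TRα1+m libraries were higher in repeat 1 and lower in repeat 2 in the first, and higher in both repeats in the second. The difference kept its sign without each library in turn, between −1.46 and −0.94, and did not pass the threshold without WT replicate 2 or with the repeat term.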

How the results depend on the processing

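The genotype comparison called 0 genes with RLE factors, DESeq2, either other filter on low counts, bias-adjusted deviances, equal numbers of nuclei, nuclei without GABA transcripts, nuclei with Slc17a6, mitochondrial genes left out, and without each library in turn. With the replicate block it called 16 genes. Fits chosen after seeing the data called 15 (bias-adjusted, with the block) and 3 (DESeq2 with the block: AC149090.1, Oxt and Arhgap22). The cause of the difference between tools was not tested.

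The log2 ratio of the sub-cluster's share was 0.05 with and without the block and reversed to −0.041 over all annotated nuclei. Without each library in turn it lay between −0.14 and 0.23, negative without WT replicate 2 or TRα1+m replicate 1. Interaction calls against Glutamatergic Neurons_2 were 7 without a filter on low counts, 37 with the replicate block and 0 to 38 without each library in turn. Against Glutamatergic Neurons_3 they were 45 without a filter, 1 with the block and 0 to 115, and against GABA neurons 8, 21 and 3 to 53. Calls between repeats were 1087 with DESeq2 and 1440 to 3484 without each library in turn, the lowest without TRα1+m replicate 1 and 1568 without WT replicate 1. The share with Slc17a6 was 61.9% in whole nuclei, 28.7% with 1500 UMIs and 32.1% with at least 2 UMIs, and for GABA genes 34.0%, 14.1% and 10.5%. The groups numbered 15 to 26 with another resolution, 19 without centring, 20 with 1000 genes and 16 to 19 without each library in turn.

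Of 44 genes named in the genotype comparison, 39 kept the sign of their log2 fold change in every alternative. Sim1 turned to 0.043 with equal numbers of nuclei and Cck to 0.025 with DESeq2 and the block. Without each library in turn, Slc17a6 lay between −0.48 and 0.25, Trh between −1.27 and 1.43, Pmch between −1.65 and 1.70 and Cck between −0.93 and 1.19. H2-Q2, at −2.22 in the unblocked fit, lay between −1.45 (without WT replicate 2) and −2.72 (without WT replicate 1), and Lgi3, at −0.67, between −0.03 (without WT replicate 2) and −1.34 (without TRα1+m replicate 2). The number of libraries (2 per genotype, with 1 or 2 residual degrees of freedom) limits the precision of every genotype difference.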

Other observations

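In 5 further gene groups of Glutamatergic Neurons_1, 0 members were called in either edgeR fit. Over all genes tested, 7.7% lay lower and 16.7% higher in TRα1+m without overlap, which is the background for the counts that follow. Of 28 axon guidance genes, 7 lay lower and 2 higher in TRα1+m without overlap (median log2 −0.14), and Dcc, a netrin receptor gene, had 2150 and 1980 CPM in WT and 2036 and 1778 CPM in TRα1+m. Of 18 circadian clock genes, 3 lay lower and 1 higher (median −0.10). Of 25 genes of phospholipid and cholesterol synthesis, 6 lay lower and 0 higher (median −0.15), among them Scd1, a fatty acid desaturase gene, with 18.0 and 20.2 CPM in WT and 13.9 and 7.32 CPM in TRα1+m. Of 19 imprinted genes, 4 lay lower and 1 higher (median −0.04), and Peg3 had 364 and 393 CPM in WT and 301 and 312 CPM in TRα1+m. Of 13 immediate early genes, 0 lay lower and 1 higher (median −0.21).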
